A study of Mus musculus with 18 samples.

Results

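The change from neural stem cells (NSCs) to astrocytes was followed in adherent cultures of a hippocampal line, 6 of the 18 libraries of the series. The line came from the hippocampi of mice with the Glast-Cre, Huwe1 fl and Rosa LSL-EYFP alleles (genotype label DNGR-1+/+), and the other 12 libraries hold the same 2 fates of spinal cord lines traced for DNGR-1 with a tdTomato or an EYFP reporter. The 3 NSC libraries were made after 4 days in medium with N-2 Max, bFGF and EGF (20 ng/ml each), heparin (5 ug/ml) and laminin (2 ug/ml), and the 3 astrocyte libraries after 6 days in BMP4 (20 ng/ml) in basal medium, which followed 24 h in NSC medium and was renewed after 3 days. Replicates were cultures of that single line at passages 10, 11 and 12, so that p-values measure the spread between cultures and not between animals.

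Values are on a log2 scale. Of the 27997 genes with values, 14781 reached 3.32, which is 10 without the logarithm, in 3 or more of the 6 hippocampal libraries and were compared. The comparison covers everything that differed between the cultures. The effect of BMP4, the withdrawal of bFGF, EGF and the other supplements, and the longer time in culture cannot be told apart. The values are relative to library size, and in these bulk samples fewer cells of a type and less RNA per cell cannot be told apart. Glast-Cre is driven by the promoter of Slc1a3, a glutamate transporter gene active in astrocytes and radial glia. Whether Huwe1 had been recombined in these cultures is not stated. The value of Huwe1, a ubiquitin ligase gene, counts reads of the whole gene and cannot show the loss of some exons; it was 13.35, 13.34 and 13.15 in NSCs and 12.97, 13.14 and 13.16 in astrocytes, and a log2 change of -0.19 (SE 0.069) passed the test (limma, adjusted p = 0.027). It no longer passed without NSC library 1, NSC library 2 or astrocyte library 1 (limma, adjusted p of 0.10, 0.094 and 0.084).

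As background, bone morphogenetic proteins bind type I and type II receptors, which phosphorylate SMAD1, SMAD5 and SMAD9. These enter the nucleus with SMAD4 and switch on the Id genes, whose products hold back the basic helix-loop-helix factors of neuronal and oligodendrocyte fate, and the inhibitory SMADs, which close a negative feedback loop. FGF and EGF keep NSCs dividing through the MAPK cascade, whose output is read from its own feedback inhibitors. Astrocytes differentiated by BMP4 are known for large, flat cells rich in intermediate filaments.

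With limma's test and Benjamini-Hochberg adjustment (threshold 0.05), 11430 of the 14781 genes (77.3%) differed between astrocytes and NSCs, 5788 (39.2%) of them higher and 5642 (38.2%) lower in astrocytes. The median change over all genes was 0.01 on the log2 scale. A rise of at least 1 on the log2 scale was found in 2267 genes (15.3%) and a fall of at least 1 in 1534 (10.4%). With a filter of 100 in place of 10, fewer genes were tested and such rises numbered 1465. The number of such falls stayed within 1.5 times. Changes of at least 3 were more often rises (439) than falls (210). Replicates differed from each other by a median of 0.083 to 0.092 in NSCs and 0.086 to 0.12 in astrocytes, against a median size of 0.69 for the changes that passed. The fates did not overlap in 79.8% of genes. The filter was passed through the astrocytes alone by 461 genes and through the NSCs alone by 245, and these had to differ. In the lists below they number at most 2 in either direction where no count is given. Since most genes passed, a count of members that passed says little by itself, and the direction and the size of the change are given beside it.

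The regional label was checked first. Emx2 and Lhx2, transcription factors that pattern the forebrain, had NSC means of 8.66 and 9.23. Emx1, by contrast, lay under the filter with a mean of -1.84. Hox genes are known as genes of the hindbrain and spinal cord and not of the forebrain. Hoxa5 stood at 9.19, 9.26 and 9.29 in the hippocampal NSCs, and Hoxa3, Hoxa7, Hoxa4 and Hoxa2 had means of 8.73, 8.08, 7.50 and 6.68. These were the 5 of 36 Hox genes whose NSC mean reached 6.64, or 100 without the logarithm. The 25 members of the HoxB, HoxC and HoxD clusters had NSC means of at most 4.57. The line is called hippocampal here as the label has it, and the Hox genes were looked at after their values were known. Slc1a3 had NSC values of 15.13, 15.07 and 15.06.

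Of the 10 microglia and macrophage genes with values, 8 lay under the filter, among them Ptprc (means of -1.56 in NSCs and -1.41 in astrocytes) and Csf1r (1.00 and 0.94), and the summed linear level of the list was 684 to 743 in NSCs and 795 to 840 in astrocytes. Both members tested rose, with a median change of 0.31, and Cd68, a lysosomal gene that other cells use too, rose by 0.49 (adjusted p = 0.011). Only 1 of the 2 passed with quantile normalization, without the trend, with all 18 libraries in the fit, or on leaving out any of 4 single libraries. Of the 10 endothelial genes, 8 were under the filter, Pecam1 (1.71 and 1.62) and Cdh5 (-2.09 and -2.13) among them, and 1 of the 2 tested fell, a call lost on leaving out any of 4 single libraries. The sum of that list was 72.1 to 84.9 in NSCs and 49.3 to 66.0 in astrocytes. Of the 18 mural and fibroblast genes, 8 were under the filter, Pdgfrb included (-0.45 and -0.81). Of the 10 tested, 4 rose and 4 fell, with a median log2 change of -0.14. Its sum went from 3347 to 3811 in NSCs to between 27500 and 33298 in astrocytes, and in every library most of it was Fn1, which astrocytes make too. The 4 that rose were Fn1, Rgs5, Kcnj8 and Vtn, the last 3 having passed the filter through the astrocytes alone. Col1a1, the main collagen of fibroblasts, fell by 0.47 (adjusted p = 0.039), a call lost without a filter, with the replicate block, with all 18 libraries in the fit and on leaving out any of 5 single libraries. What share of the collagen and matrix results these levels account for was not tested.

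**Figure D1:**
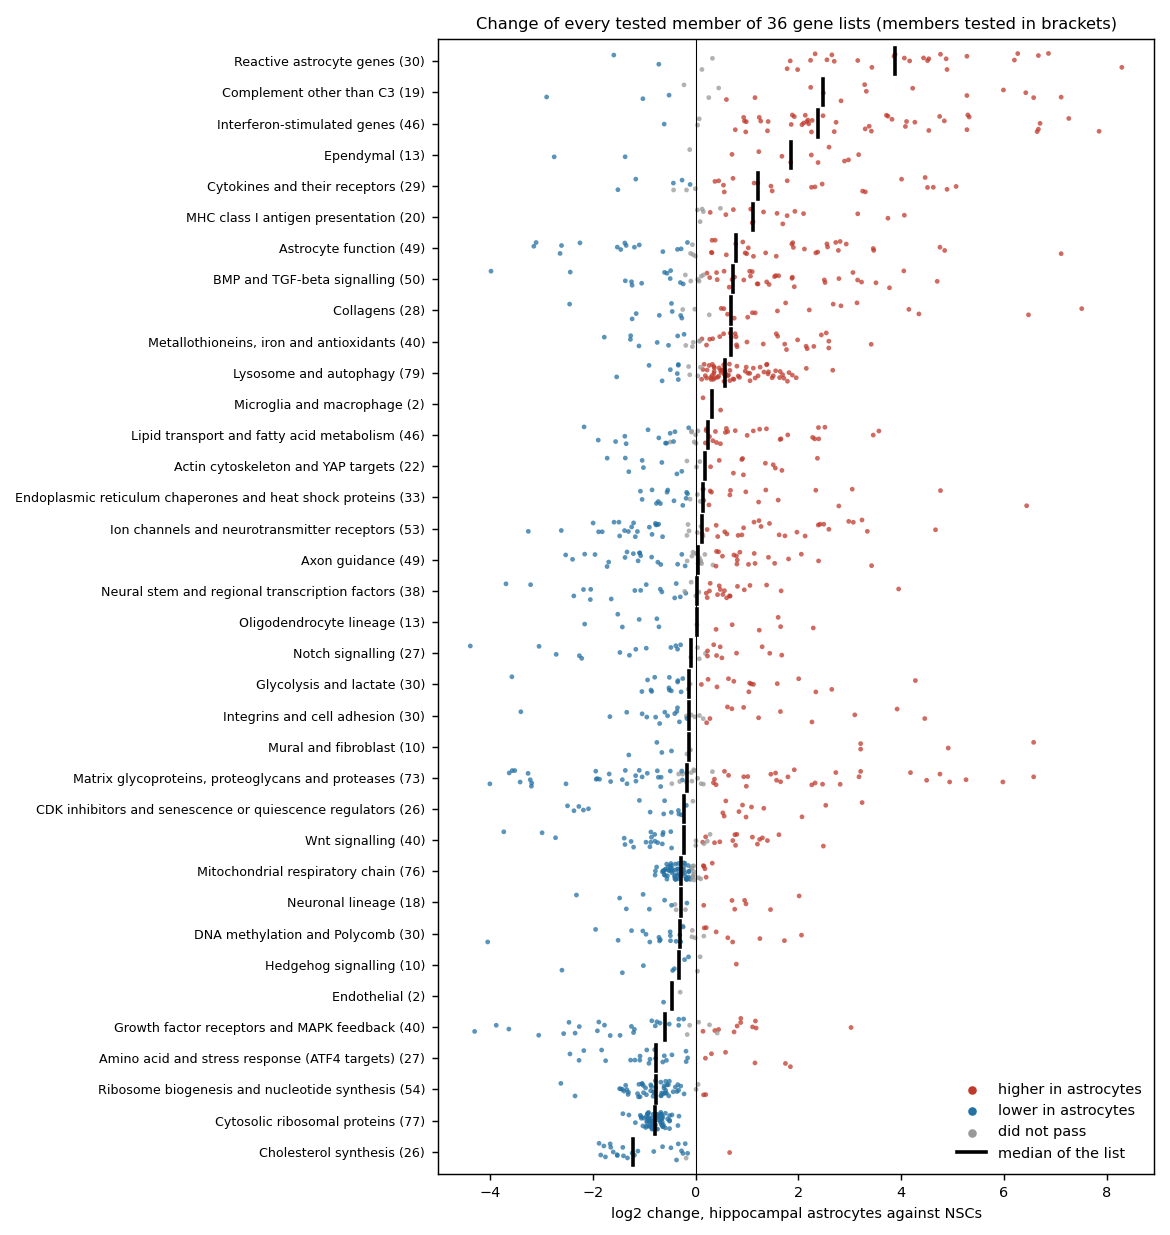
Log2 change from hippocampal NSCs to astrocytes (x axis, n = 3 libraries each) for every tested member of 36 gene lists (rows, with the number of members tested). Points are genes (red, higher; blue, lower; grey, did not pass limma at an adjusted p of 0.05) and black bars are medians, which run from -1.21 for cholesterol synthesis to 3.87 for reactive astrocyte genes.

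The ranking by size took protein-coding genes that passed the test without overlap of the fates, with a mean of at least 6.64 in the higher group. Gfap, C3, Nes and listed cell cycle genes were left out of it. Within it the largest rises were, in order, Ppl, Serpina3m, Aspg, Galnt9, Mrgprf, Oasl2, Col6a1, Ifit1, Clu and Cnmd. Ppl encodes periplakin, which links intermediate filaments to cell junctions. Its values (chr16:5086291-5132421, GRCm38) were 1.90, 1.91 and 1.87 in NSCs and 11.35, 10.39 and 9.95 in astrocytes, a change of 8.67 (SE 0.29). Serpina3m, a serine protease inhibitor, went from 0.96, 0.96 and 0.93 to 10.19, 9.13 and 8.95, a change of 8.47 (SE 0.29). For 8 of the 10, Clu and Col6a1 excepted, the NSC mean was under the filter, where these values have no fixed level for a gene without reads, so the size of such a change has no exact meaning. These 8 genes would not have entered the comparison without their astrocyte values and so had to differ, and no p-value is given for them. In every one of the 10 the lowest astrocyte library lay far above the highest NSC library, and astrocyte libraries differed among themselves by up to about 2 units, Galnt9 (10.30, 8.99 and 8.21), which encodes an enzyme of O-linked glycosylation, being the widest. Clu (chr14:65968483-65981547), the clusterin gene, is the member measured well in both fates. It had values of 8.60, 8.66 and 8.63 in NSCs and 15.72, 15.77 and 15.74 in astrocytes, a rise of 7.12 (SE 0.038), which is 139-fold. Clusterin is a secreted chaperone that carries lipids and restrains complement, and among these genes it had the smallest spread between cultures.

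In the same ranking the largest falls were those of Pif1, Egr4, Fosb, Car3, Ankle1, Egr3, Nrarp, Nrgn, Dusp6 and Car8. Of the genes left out of it, 321 that fell and 40 that rose otherwise met the criteria. Egr3, Egr4 and Fosb are immediate early transcription factors and Dusp6 (chr10:99263231-99267489) is the ERK phosphatase that MAPK signalling induces. Fosb went from 12.91, 13.77 and 13.15 to 8.28, 8.29 and 8.51, a change of -4.92 (SE 0.18, adjusted p = 5.5e-09). Pif1, a DNA helicase gene, went from 8.17, 8.12 and 8.28 to 3.26, 3.04 and 2.97, a change of -5.10, and Ankle1, a nuclease gene, from 7.65, 7.46 and 7.65 to 2.87, 3.31 and 2.80. Both act on replicating DNA and were not among the cell cycle names left out. Car3 and Car8, of the carbonic anhydrase family, changed by -4.63 and -4.21, and Nrgn, which binds calmodulin, by -4.31. In 3 of the 10 the astrocyte mean was under the filter.

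The changes of these 20 genes in the traced lines are set beside them as a description, since the genes were picked for their change in the hippocampal line and a larger change there follows in part from that choice. Over all genes, the difference between the hippocampal change and the mean change of the traced lines passed the test (limma over all 18 libraries) for 7133 of 15448 genes (46.2%), and the hippocampal change was the higher in 4002 (25.9%) and the lower in 3131 (20.3%). Serpina3m changed by 0.18 and 0.08 in the tdTomato and EYFP lines, and Cnmd, which encodes a matrix protein of cartilage, by -0.42 and 0.36, against 7.02 in the hippocampal line. Clu changed by 4.13 and 4.62 in the traced lines. Among the falls, Car3 changed by -4.63, -0.70 and -2.17 in the hippocampal, tdTomato and EYFP lines, and Egr4 by -4.96, -2.33 and -4.40. Fosb changed by -4.92, -3.28 and -4.86 and Car8 by -4.21, -3.55 and -3.78, so that for Egr4 and Fosb the EYFP line lay closer to the hippocampal line than the tdTomato line did. Pif1 changed by -5.10, -5.01 and -5.07 and Dusp6 by -4.30, -3.99 and -4.94.

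**Figure D2:**
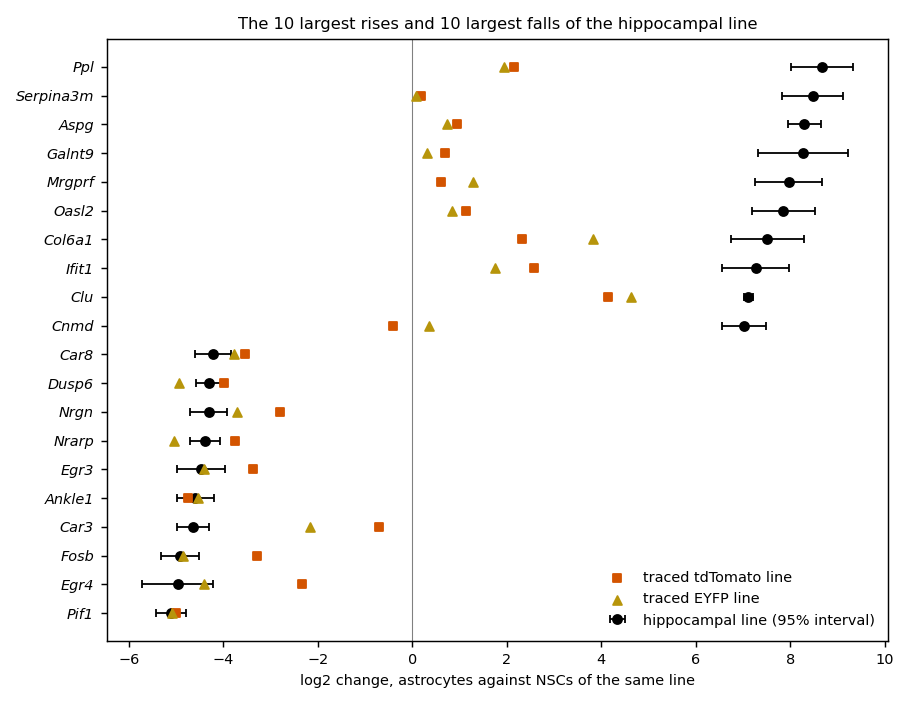
Log2 change from NSCs to astrocytes (x axis) of the 10 largest rises and 10 largest falls of the hippocampal line (black, with 95% intervals), beside the traced tdTomato (squares) and EYFP (triangles) lines; 3 libraries per fate and line. Gfap, C3, Nes and listed cell cycle genes were left out of the ranking. For Pif1 and Ankle1 the 3 lines lie together, and for Serpina3m and Cnmd the traced lines lie near 0.

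Of 59 genes of BMP and TGF-beta signalling, 50 were tested, 32 rose and 12 fell, with a median change of 0.73 against 0.01 for all genes. By role, 8 of 10 targets, 10 of 16 inhibitors, 6 of 8 ligands, 5 of 10 receptors and 3 of 6 SMADs rose, with median changes of 1.71, 0.49, 1.06, 0.38 and 0.17. Id1 had values of 8.68, 8.73 and 8.70 in NSCs and 12.07, 11.90 and 11.61 in astrocytes (change 3.15, SE 0.095, adjusted p = 1.7e-09). Id3 stood at 10.79, 10.68 and 11.08 and then at 13.54, 13.35 and 13.21 (change 2.52), the highest level of the 4 Id genes in both fates on this scale, which is not per length. Id4 went from 6.74, 6.95 and 6.61 to 11.06, 10.74 and 10.66 (change 4.05) and Id2 from 9.41, 9.32 and 9.38 to 11.51, 11.17 and 11.06 (change 1.87). For each Id gene the groups were well apart, and Id4, the lowest in NSCs, had the largest change. Atoh8, a basic helix-loop-helix gene known as a BMP target, had the largest rise on the list, from 5.76, 5.73 and 5.83 to 10.65, 10.52 and 10.25 (change 4.70, SE 0.10).

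Among the signal transducers, Smad9 rose by 3.77 (6.49, 6.39 and 6.20 in NSCs, 10.27, 9.99 and 10.13 in astrocytes). The inhibitory SMAD genes Smad6 and Smad7 rose by 3.06 and 1.92. Bmp7, a BMP ligand that NSCs make themselves, fell from 9.26, 9.33 and 9.35 to 5.16, 5.23 and 5.59 (change -3.98), while Bmp4, the ligand added to the medium, had means of -0.66 and -1.27 and was not tested. Astrocyte library 1 was the highest of its group in 24 of the 32 members that rose, and in 42.9% of all genes that rose. Without it the number of members that passed was 44, as with it, and the median change was 0.72.

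Promoter sequences from the BMP and TGF-beta list are shown for the GC-rich element GGCGCC, a site bound by BMP-activated SMADs and the same on both strands. Windows run from 250 bases before to 50 after the start of each gene, in the RefSeq table for GRCm38.p6, and capitals mark the matches. Of the 50 genes of the whole list tested, 33 had a window and 11 of these (33.3%) held the element. It was held by 13.4% of all 27025 genes with a window. Of the 10 targets tested, 5 had a window and 2 of these held it. The windows of the list had a median GC content of 66.7%, and all windows 52.7%. Matches were found for Id2, Id4 and Smad9.
Id2 (chr12:25096043-25096342, minus strand): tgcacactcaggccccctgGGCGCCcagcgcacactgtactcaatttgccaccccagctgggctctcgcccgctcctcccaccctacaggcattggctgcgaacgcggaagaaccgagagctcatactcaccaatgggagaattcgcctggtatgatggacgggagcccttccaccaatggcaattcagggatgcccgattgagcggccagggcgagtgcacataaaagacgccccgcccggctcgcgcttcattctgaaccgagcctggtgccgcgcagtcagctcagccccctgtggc
Id4 (chr13:48260866-48261165, plus strand): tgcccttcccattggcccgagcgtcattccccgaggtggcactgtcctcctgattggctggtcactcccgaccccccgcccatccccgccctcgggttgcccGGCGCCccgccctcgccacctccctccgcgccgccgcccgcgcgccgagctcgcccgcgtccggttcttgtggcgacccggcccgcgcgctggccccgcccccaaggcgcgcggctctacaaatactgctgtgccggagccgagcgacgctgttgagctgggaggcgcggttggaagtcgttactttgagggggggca
Smad9 (chr3:54755332-54755631, plus strand): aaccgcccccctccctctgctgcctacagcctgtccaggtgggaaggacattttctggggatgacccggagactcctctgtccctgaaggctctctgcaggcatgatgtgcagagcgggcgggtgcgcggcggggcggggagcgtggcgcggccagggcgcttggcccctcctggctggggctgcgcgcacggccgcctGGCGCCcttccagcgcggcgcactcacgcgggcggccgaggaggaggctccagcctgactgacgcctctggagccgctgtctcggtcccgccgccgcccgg
No window of Id3, Atoh8 or Smad6 held these letters, and Id1 was named without a sequence. A match is a description of the letters only.

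Genes read out from FGF and EGF signalling went down. Of the 40 members tested of the growth factor and MAPK list, 24 fell and 11 rose (median -0.60). None of the 12 feedback inhibitors rose at the threshold and 10 fell (median -1.05), and 9 of 11 transcription factors of the cascade fell (median -1.21). Dusp6 had 12.26, 12.31 and 12.60 in NSCs and 7.84, 8.14 and 8.28 in astrocytes, a fall to 1 part in 19.7 (change -4.30, SE 0.12). The Sprouty genes Spry4 and Spry1, which block receptor tyrosine kinase signalling, changed by -3.88 and -3.64. Spry1 was nearly the same in each library of a fate (11.82, 11.95 and 11.79, then 8.19, 8.27 and 8.18). The ETS factors Etv4 and Etv5 changed by -2.27 and -1.78, and Egr1 by -3.06. Of the receptors, Egfr fell by 1.66 on the log2 scale, from 13.81, 13.82 and 13.72 to 11.95, 12.14 and 12.26. Fgfr3 stayed between 11.79 and 12.07 in the 6 libraries (change -0.12, adjusted p = 0.11). Myc fell by 0.33, a small change beside those of the feedback genes.

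**Figure D3:**
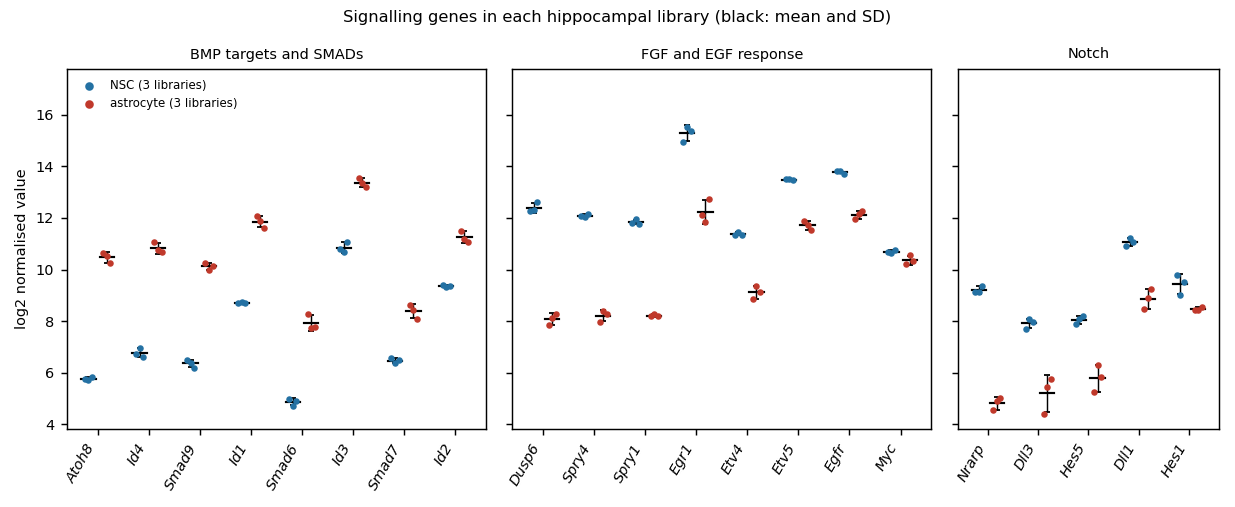
Log2 normalised values (y axis) of BMP targets and SMADs, FGF and EGF response genes and Notch genes in the 3 NSC (blue) and 3 astrocyte (red) libraries of the hippocampal line, with mean and SD in black. The BMP panel lies higher in astrocytes for all 8 genes, and the fates do not overlap for any gene shown in the other panels, where astrocytes lie lower.

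Notch signalling moved in both directions. Of 27 members tested 13 fell and 10 rose (median -0.10, which turned to 0.0167 without a filter). The members with large changes were the target Nrarp (9.11, 9.14 and 9.37 in NSCs, 4.54, 4.89 and 5.02 in astrocytes, change -4.39), the ligands Dll3 and Dll1 (changes of -2.72 and -2.22) and the target Hes5 (change -2.26). Gm38287 covers 79.4% of the exons of Nrarp, so that their reads may not be told apart. Hes1, a target that BMP signalling can also induce, fell by less (-0.96, from 9.78, 9.03 and 9.51 to 8.45, 8.44 and 8.55). Of the Wnt list, 40 were tested, 20 fell and 15 rose (median -0.23, which turned to 0.0046 without a filter). By role 7 of 10 inhibitors fell, 2 members having passed the filter through the NSCs alone. The ligand Wnt7a fell by 2.99 and the inhibitor Nkd1 by 2.73, while the ligands Wnt9a and Wnt5b rose by 2.49 and 1.62. Axin2, the feedback target most used as a Wnt readout, had a change of 0.01 (SE 0.055, adjusted p = 0.92), with values between 10.72 and 10.91 in all 6 libraries. In the Hedgehog list, 7 of 10 fell and 1 rose (median -0.32): Gli2 changed by -1.43, Cdon by -1.02, Gli3 by -0.45 and the receptor and target Ptch1 by -0.42, and Boc rose by 0.79. Gli1, its main target, was under the filter (means of 1.66 and 2.42).

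Genes of astrocyte function did not rise as a block. Of 49 tested, 30 rose and 15 fell (median 0.78). Secreted and surface proteins rose most, 17 of 20 with a median of 2.14, and water channel, potassium channel and gap junction genes followed (6 of 8, median 1.45). For glutamate and GABA handling 4 of 10 rose and 5 fell (median -0.79), and for metabolic enzymes 3 of 11 rose and 6 fell (median -0.28). Apoe, the main lipid carrier of astrocytes, went from 13.74, 14.01 and 13.67 to 17.33, 17.21 and 17.24 (change 3.46, 11.0-fold), and Sparcl1, a secreted synapse-organising protein, from 11.35, 11.54 and 11.49 to 16.12, 16.31 and 16.23 (change 4.76). The water channel gene Aqp4 had 8.37, 8.38 and 8.39 in NSCs and 13.43, 13.15 and 13.10 in astrocytes (change 4.85, SE 0.077). Gja1, of the main astrocyte gap junction, rose by 2.73, Cd44 by 2.56 and S100b by 1.90. These genes were thus expressed in both fates, with clearly separate levels.

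The glutamate transporter genes Slc1a2 and Slc1a3 rose by 0.99 and 0.32, and Slc1a3, high in NSCs already, turned to -0.30 with quantile normalization (adjusted p = 0.0015). Aldoc rose by 1.13. Other genes in daily use as astrocyte markers had changes near 0. Kcnj10, the inward rectifier potassium channel gene, had a mean of 14.02 in NSCs and 13.86 in astrocytes (change -0.16, adjusted p = 0.016). Glul, the glutamine synthetase gene, had a change of -0.06 (SE 0.041, adjusted p = 0.18) and Aldh1l1 of -0.01 (SE 0.16, adjusted p = 0.98), with 10.53, 10.27 and 10.06 against 10.68, 10.14 and 10.01.

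Of 38 transcription factors tested in the list of stem and regional factors, 18 rose and 16 fell. The median was 0.03 and turned to -0.0017 without NSC library 3. By role, 11 of the 27 stem and glial factors rose and 14 fell (median -0.19), and 7 of the 11 forebrain factors rose and 2 fell (median 0.22). The largest rise was that of Hopx, an atypical homeodomain gene of quiescent stem cells, from 5.99, 5.43 and 5.87 to 9.76, 9.80 and 9.59 (change 3.95). Sox9, Sox2 and Nfia, which astrocytes keep, rose by 1.66, 0.95 and 0.81. Sox3 fell from 11.52, 11.55 and 11.49 to 7.24, 7.88 and 8.37 (change -3.69), Hmga2, a chromatin gene of young stem cells, by 3.21, and Olig2, which specifies oligodendrocytes and motor neurons, by 2.37. Of the forebrain factors, Pax6 and Emx2 rose by 0.56 and 0.27 and Lhx2 fell by 0.41.

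The neuronal list had 18 members tested (13 under the filter), of which 8 fell and 7 rose (median -0.29, which turned to 0.157 with a filter of 100 in place of 10). Elavl4 and Stmn1 fell by 2.32 and 1.02, and Mapt and Tubb3 rose by 2.01 and 1.46, while Dcx, of migrating neuroblasts, was under the filter (means of 1.89 and 3.65). Stmn1 shares 30.5% of its 75-base stretches with other genes. Oligodendrocyte genes were likewise mixed, with 6 rising and 6 falling of 13 (median 0.02). Progenitor genes Cspg4 and Ptprz1 fell by 1.43 and 1.10, and the myelin gene Cnp rose by 1.61. Mbp, with values of 4.31, 3.69 and 4.03 in astrocytes, stayed low, and Sox10, which defines the lineage, was under the filter (0.62 and 0.43). Ependymal genes rose in 10 of 13 (median 1.85), 1 of which passed the filter through the astrocytes alone. Foxj1, the master regulator of motile cilia, went from 10.48, 10.30 and 10.26 to 12.28, 12.11 and 12.19 (change 1.85, SE 0.064), Rfx2 rose by 2.25, Kif9 by 2.98 and Cfap126 by 2.90. The summed level of the list was 4818 to 4972 in NSCs and 10091 to 11453 in astrocytes.

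Interferon-stimulated genes rose almost throughout the list, and the protocol names no added interferon. Of 50 genes, 46 were tested, 43 rose and 1 fell, with a median of 2.37, and 38 rose by at least 1. The list includes 9 members that passed the filter through the astrocytes alone and so had to differ. Oasl2, a gene of the oligoadenylate synthetase family, had 2.69, 3.20 and 2.66 in NSCs and 11.50, 10.37 and 10.24 in astrocytes (change 7.85, SE 0.30). Ifit1, which binds foreign RNA caps, had 2.85, 2.85 and 3.57 and then 11.15, 10.04 and 9.88 (change 7.26). Irf7, Isg15 and Bst2 rose by 3.42, 4.08 and 3.38. All 10 of the sensors and transcription factors tested rose (median 2.26), and 33 of 36 effectors (median 2.72). Ifit3b, with a change of 6.70, shares 35.7% of its 75-base stretches with other genes.

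The astrocyte libraries differed in level for these genes. Library 1 was the highest of its group in 40 of the 43 that rose, and in 42.9% of all genes that rose. Over the 43 it had a mean log2 value of 9.17, against 8.73 and 8.65 in libraries 2 and 3. These counts describe 1 culture. Library 1 was also the highest in all 15 MHC class I genes that rose. Without that library 43 interferon-stimulated members passed the test, against 44 with it, and the median change was 2.19. The labels do not tie replicate numbers to passages, and what part the passage has in this was not tested. For 44 of the 46 members tested the change differed from that of the traced lines, in 43 with the higher change in the hippocampal line. This count and the medians include the 9 members that entered through their hippocampal astrocyte values, for which a higher change follows in part from the filter. The medians over the list were 2.37 in the hippocampal, 0.97 in the tdTomato and 0.65 in the EYFP line.

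MHC class I antigen presentation rose with them. Of 20 genes tested 15 rose and none fell at the threshold (median 1.11; 2 passed through the astrocytes alone). H2-T23, a nonclassical class I gene, went from 6.08, 6.53 and 6.52 to 10.79, 10.35 and 10.19 (change 4.06), H2-D1, a classical one, from 7.54, 7.47 and 7.80 to 11.15, 10.52 and 10.60 (change 3.16), and B2m, the light chain, from 9.99, 10.10 and 10.03 to 12.00, 11.64 and 11.58 (change 1.70). Tap2 and Tapbp, of peptide loading, rose by 2.10 and 1.93, and H2-K1 by 1.07.

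The interferon-stimulated response element was looked up in the promoter windows as 2 copies of GAAA with any 2 bases between them, on either strand (TTTC on the other). Of the 43 genes that rose, 31 had a window and 18 of these (58.1%) held it. For the 15 MHC class I genes that rose it was 5 of 13 (38.5%), and over all genes with a window 3.99%. The median GC content was 53% for the interferon list and 52.7% for all windows. Those of Ifit1, Isg15, H2-T23 and B2m are printed, with matches in capitals; neighbouring matches in Isg15 overlap and so appear as a single run.
Ifit1 (chr19:34640639-34640938, plus strand): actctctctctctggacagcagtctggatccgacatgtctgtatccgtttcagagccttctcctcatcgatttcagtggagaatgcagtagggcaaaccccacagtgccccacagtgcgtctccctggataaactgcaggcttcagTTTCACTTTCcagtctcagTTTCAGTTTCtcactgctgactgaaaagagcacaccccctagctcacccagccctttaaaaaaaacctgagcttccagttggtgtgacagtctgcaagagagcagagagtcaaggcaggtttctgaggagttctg
Isg15 (chr4:156200769-156201068, minus strand): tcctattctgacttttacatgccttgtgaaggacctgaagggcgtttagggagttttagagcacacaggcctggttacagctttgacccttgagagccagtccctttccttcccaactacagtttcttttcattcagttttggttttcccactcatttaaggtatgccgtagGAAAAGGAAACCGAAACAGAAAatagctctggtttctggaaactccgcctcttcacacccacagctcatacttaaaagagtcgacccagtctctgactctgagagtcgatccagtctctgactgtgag
H2-T23 (chr17:36032652-36032951, minus strand): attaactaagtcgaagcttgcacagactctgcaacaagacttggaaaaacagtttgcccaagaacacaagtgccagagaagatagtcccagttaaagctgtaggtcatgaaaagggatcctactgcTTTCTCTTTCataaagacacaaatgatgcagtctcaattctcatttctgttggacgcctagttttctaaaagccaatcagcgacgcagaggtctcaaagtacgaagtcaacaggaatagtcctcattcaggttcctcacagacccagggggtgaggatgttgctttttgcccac
B2m (chr2:122147437-122147736, plus strand): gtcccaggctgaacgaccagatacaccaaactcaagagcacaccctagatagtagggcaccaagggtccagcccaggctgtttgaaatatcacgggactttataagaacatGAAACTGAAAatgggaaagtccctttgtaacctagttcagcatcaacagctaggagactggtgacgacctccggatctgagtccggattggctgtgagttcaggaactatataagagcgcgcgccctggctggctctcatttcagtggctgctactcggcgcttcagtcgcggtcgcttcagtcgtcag
The windows of Oasl2, Irf7 and H2-D1 did not hold these letters.

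Complement genes other than C3 changed over a wide range: 13 of 19 rose and 3 fell (median 2.49), 4 having passed the filter through the astrocytes alone and 1 through NSCs alone. Regulators rose in 8 of 9 (median 2.83) and components in 5 of 10 (median 0.52). C4b, of the classical pathway, had 6.54, 6.64 and 6.51 in NSCs and 12.93, 12.90 and 13.15 in astrocytes (change 6.43, SE 0.073), with 23.5% of its 75-base stretches shared with other genes. Cd59a, which blocks the membrane attack complex, had 4.19, 4.51 and 3.85 and then 10.32, 10.20 and 10.01 (change 5.99). C1s1 rose by 4.23 and the C1 inhibitor Serping1 by 5.28, from values of 1.48, 1.83 and 2.06. The astrocyte libraries were close to each other for C4b and Cd59a, and library 1 was not set apart there as for the interferon genes.

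**Figure D4:**
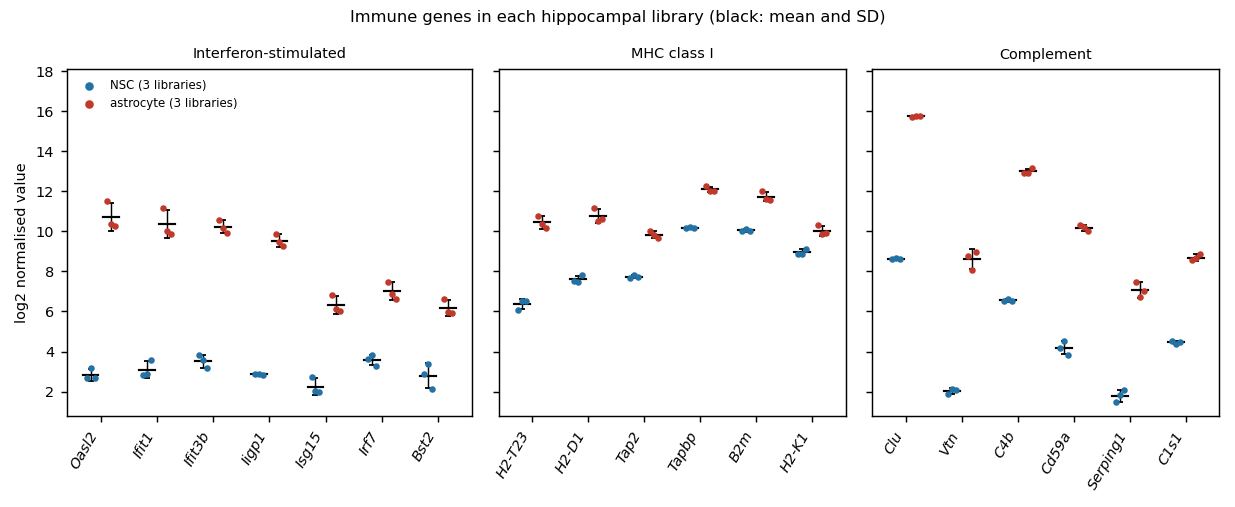
Log2 normalised values (y axis) of interferon-stimulated, MHC class I and complement genes in the 3 NSC (blue) and 3 astrocyte (red) libraries of the hippocampal line, with mean and SD in black. Points of a group run from replicate 1 on the left to 3 on the right. For the interferon and MHC genes astrocyte library 1 is the highest, and no gene shown has overlapping fates.

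Genes listed as markers of reactive astrocytes rose in 26 of 30 (median 3.87), and 10 of these passed the filter through the astrocytes alone. All 12 pan-reactive genes tested rose (median 4.2), as did 8 of 10 A1 genes (median 4.11) and 6 of 8 A2 genes (median 3.04). Of these, 6 pan-reactive and 4 A1 genes passed the filter through the astrocytes alone and had to rise. No A2 gene did, so the counts and medians of the 3 groups cannot be ranked against each other. The A1 list shares interferon-stimulated members such as Iigp1 (change 6.67). Serpina3n went from 5.54, 5.68 and 5.52 to 12.94, 12.24 and 12.17 (change 6.87), Lcn2, the lipocalin that binds iron carriers, from 1.52, 1.53 and 1.5 to 8.51, 7.44 and 7.41 (change 6.27), and Vim, the intermediate filament gene vimentin, from 15.21, 15.12 and 15.22 to 17.64, 17.30 and 17.32 (change 2.24). For 27 of the 30 the change was larger than in the traced lines, whose medians were 1.01 and 0.86, and this count follows in part from the 10 members that entered through their hippocampal astrocyte values. Cytokines and their receptors rose in 21 of 29 and fell in 5 (median 1.21). Il1r1, the interleukin 1 receptor gene, rose from 6.08, 5.25 and 5.05 to 10.69, 10.43 and 10.48 (change 5.07), the IL-6 family genes Clcf1, Il6ra and Osmr by 4.89, 4.63 and 4.51, and the feedback inhibitor Socs3 by 1.78. Cntfr fell by 0.43.

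Matrix genes changed in both directions. Of 28 collagen genes tested, 17 rose and 8 fell (median 0.69; 3 passed through astrocytes alone and 2 through NSCs alone). Col6a1 and Col6a2, neighbours in the genome and chains of the same collagen VI molecule, went from 4.71, 4.49 and 4.85 to 13.21, 11.58 and 11.82 (change 7.52, SE 0.34) and from 3.33, 3.76 and 4.27 to 10.96, 9.79 and 10.05 (change 6.48). Astrocyte library 1 was the highest for both. Of the 17 collagens that rose, it was the highest in 8 and library 3 in 7. Over all genes that rose, library 1 was the highest in 42.9%, so the count for collagens does not set it apart. Col4a6 and Col23a1 rose by 4.35 and 3.14, and Col4a1, of basement membranes, fell by 0.46. Of 73 other matrix genes, 32 fell and 28 rose (median -0.17; 3 passed through astrocytes alone and 2 through NSCs alone), so that the list as a whole moved in no direction. Fn1, the fibronectin gene, rose by 3.21 (11.70, 11.48 and 11.65 to 14.98, 14.70 and 14.78), Vtn by 6.58, Fmod by 5.98, Tnxb by 5.26, the protease Mmp19 by 4.94 and Timp3 by 1.56. Against these, Tnc, the tenascin of stem cell niches, fell from 14.53, 14.39 and 14.20 to 11.25, 11.01 and 11.29 (change -3.19), and the brain proteoglycan genes Ncan and Bcan by 1.34 and 0.68. Vcan had a change of -0.33 (adjusted p = 0.064), and Mmp14 fell by 0.26.

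Adhesion genes were mixed as well, with 14 of 30 falling and 11 rising (median -0.13). The laminin-binding integrin genes Itga3 and Itga7 rose by 4.46 and 3.10, Itga4 fell by 3.4, Cdh4 by 1.67 and Itgb1 by 0.55, and Cdh2 had a change of -0.09 (adjusted p = 0.18). Of the 22 actin and YAP target genes, 11 rose and 8 fell (median 0.19). Actn1 rose by 2.37, Cnn3 by 1.55 and Axl by 1.51, while Cnn2 and the smooth muscle actin gene Acta2 fell by 1.72 and 1.3. Axon guidance genes fell in 19 and rose in 18 of 49 (median 0.05), with Sema4d up by 3.43 and Sema5b, Sema5a and Slit2 down by 2.53, 2.16 and 1.96. Ion channel and receptor genes rose in 26 and fell in 21 of 53 (median 0.13; 3 passed through astrocytes alone). Kcna6, Gria1 and Gabbr2 rose by 3.24, 3.07 and 2.98 and the AMPA receptor gene Gria2 fell by 2.62.

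All 77 cytosolic ribosomal protein genes fell, between 0.33 and 1.42 on the log2 scale (median -0.78). Rpsa had 14.50, 14.45 and 14.58 in NSCs and 13.06, 13.16 and 13.06 in astrocytes (change -1.42), and Rps26 13.13, 13.13 and 13.20 and then 11.95, 11.99 and 12.00 (change -1.17). Of the 77, 49 share at least 20% of their 75-base stretches with other genes, so that single values are uncertain. Other RNAs moved the other way in the same libraries: Malat1, a nuclear noncoding RNA, had 14.10, 14.02 and 13.72 in NSCs and 15.06, 15.78 and 15.62 in astrocytes (change 1.54), and of the 13 protein genes of the mitochondrial genome 9 rose and none fell at the threshold (median 0.81). Both were looked at after their values were known, and their part in the falls of the ribosomal protein and respiratory chain genes was not tested. Genes of ribosome biogenesis and nucleotide synthesis fell in 50 of 54 (median -0.78): Nop56 and Fbl, of the small nucleolar particles, by 1.48 and 1.31, Mthfd2 and Shmt1, of one-carbon metabolism, by 2.63 and 2.35, and Ncl by 0.40. ATF4 targets fell in 21 and rose in 6 of 27 (median -0.78), with Slc1a5, Pycr1, Slc7a1 and Asns down by 2.27, 2.18, 1.75 and 1.08, Phgdh down by 0.16 and Cebpb up by 1.84.

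Cholesterol synthesis had the lowest median of all lists (-1.21), with 24 of 26 falling and 1 rising. Mvd, of the mevalonate part of the pathway, went from 10.37, 10.19 and 10.56 to 8.75, 8.50 and 8.33 (change -1.85), and Fdps and Dhcr7 fell by 1.79 and 1.76. Srebf2, which encodes their regulator, fell by only 0.20. In 20 of the 26 the change differed from that of the traced lines, and in each of the 20 it was the higher, that is the smaller fall: the medians of the traced lines were -2.03 and -1.5. Genes of lipid transport rose in 9 of 14 (median 0.70), those of fatty acid oxidation in 14 of 19 (median 0.38), and those of fatty acid synthesis fell in 8 of 13 (median -0.43). The lipid efflux gene Abca1 had 11.54, 11.53 and 11.13 in NSCs and 13.72, 13.78 and 13.87 in astrocytes (change 2.39). Lcat, which esterifies cholesterol on lipoproteins, rose by 2.52, the lipid droplet gene Plin4 by 3.57 and Pdk4 by 2.40, while Fasn fell by 0.43.

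Of 30 glycolysis and lactate genes 14 rose and 14 fell (median -0.13). The hexokinase gene Hk2 fell from 8.72, 8.77 and 9.15 to 5.45, 5.24 and 5.22 (change -3.58), and the phosphofructokinase gene Pfkp, of a later step, rose from 6.79, 6.59 and 6.73 to 11.21, 10.91 and 10.83 (change 4.28). The lactate carrier gene Slc16a1 and the glycogen phosphorylase gene Pygb rose by 2.65 and 2.34, and Ldha fell by 0.35. Nuclear genes of the respiratory chain fell in 58 of 76 and rose in 5 (median -0.29), and none changed by 1 or more. Cox5a went from 11.35, 11.23 and 11.31 to 10.62, 10.61 and 10.38 (change -0.76) and Atp5b from 15.16, 15.12 and 15.19 to 14.58, 14.55 and 14.40 (change -0.65), while Sdha had a change of 0.05 (adjusted p = 0.26). In 67 of the 76 the change was lower than in the traced lines, whose medians were 0.06 and 0.09.

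Lysosomal and autophagy genes rose in 67 of 79 and fell in 8 (median 0.57). The cathepsin gene Ctsb had 12.77, 12.89 and 12.89 in NSCs and 15.71, 15.46 and 15.39 in astrocytes (change 2.67), and Lgmn, Ctsf and Ctsd rose by 1.96, 1.88 and 1.72. Membrane proteins and autophagy genes moved with the proteases: Cd63 rose by 2.15, Sqstm1 by 1.63, Psap by 1.49, Lamp1 by 1.38 and the regulator Tfeb from 7.71, 7.87 and 7.79 to 8.97, 9.05 and 8.98 (change 1.21). By role, 11 of 12 proteases (median 1.46), 24 of 27 membrane proteins and pump subunits (0.49), 19 of 26 glycosidases and lipases (0.48) and 13 of 14 autophagy genes and regulators (0.94) rose. Lipa had a change of 0.09 (adjusted p = 0.18). TFEB and its relatives bind a site with the core CACGTG, which reads the same on both strands. Of the 79 genes, 64 had a window and 20 of them (31.25%) held the core, against 8.09% of all genes. The longer form of the site, with GT before the core and AC after it, was in 2 of the 64 (3.125%) and in 0.37% of all genes. The median GC content was 56.8% for the windows of the list and 52.7% for all. Of the genes named above, Lamp1, Ctsd and Ctsf held the core, as did 1 of the 2 windows of Lgmn, while no window of Psap, Sqstm1, Cd63 or Tfeb did and Ctsb was named without a sequence. Lamp1 is printed, with its 4 matches in capitals, as the window with the most among these.
Lamp1 (chr8:13158911-13159210, plus strand): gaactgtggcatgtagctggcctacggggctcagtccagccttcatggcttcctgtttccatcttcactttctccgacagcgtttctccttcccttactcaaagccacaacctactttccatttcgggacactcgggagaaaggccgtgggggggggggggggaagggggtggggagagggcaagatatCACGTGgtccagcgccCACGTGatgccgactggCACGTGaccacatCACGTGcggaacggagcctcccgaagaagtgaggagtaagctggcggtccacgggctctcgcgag

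**Figure D5:**
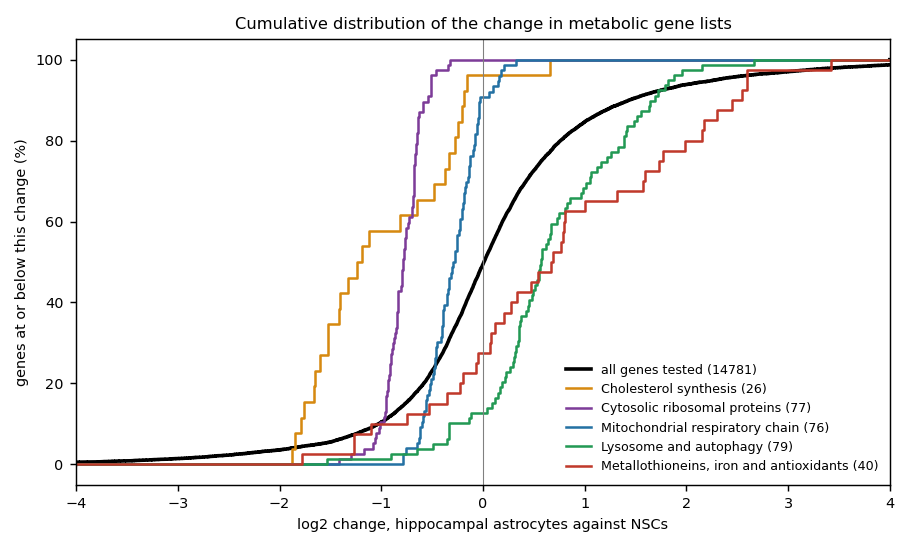
Cumulative share of genes (y axis, percent) at or below a log2 change from hippocampal NSCs to astrocytes (x axis, cut at 4 on either side) for 5 lists and all 14781 genes tested (black); members tested in brackets. Medians run from -1.21 for cholesterol synthesis over -0.78 and -0.29 for ribosomal proteins and the respiratory chain to 0.57 for lysosomal and 0.68 for metal and antioxidant genes.

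Metal-binding and antioxidant genes rose in 27 of 40 and fell in 8 (median 0.68). Mt1 had 11.35, 11.38 and 11.40 in NSCs and 13.84, 13.75 and 13.87 in astrocytes (change 2.45, SE 0.043), and Mt2 and Mt3 rose by 2.54 and 1.57; Gm45774 covers 73.5% of the exons of Mt2. The zinc importer gene Slc39a12 rose by 3.42, the ferritin heavy chain gene Fth1 by 2.59, Prdx6 by 2.59 and Hmox1 by 1.32, and Sod2 had a change of -0.06 (adjusted p = 0.14). Chaperone genes rose in 16 and fell in 13 of 33 (median 0.14). Small heat shock protein genes stood out by size: Hspb8 went from 7.28, 7.55 and 7.15 to 14.10, 13.71 and 13.50 (change 6.44, SE 0.14), Hspb1 rose by 4.77 and Cryab by 2.79. Hspa1a rose by 3.05, but more than 50% of it (54.2%) is shared with other genes, and Hspb1 shares 47.3%. Hspa5, the main chaperone of the endoplasmic reticulum, had a change of 0.15 (adjusted p = 0.058).

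Regulators of cell cycle exit did not move together. Of 26 genes of CDK inhibition, senescence and quiescence, 11 rose and 14 fell (median -0.23). Cdkn2b went from 7.92, 7.71 and 7.88 to 10.48, 10.36 and 10.27 (change 2.53) and Gadd45b rose by 3.24. Cdkn1c fell by 2.27, Rbl1 by 2.37 and Ccnd1, a target of mitogen signalling, by 2.5. Cdkn1a had a change of -0.05 (adjusted p = 0.56). DNA methylation and Polycomb genes fell in 17 and rose in 8 of 30 (median -0.30). Uhrf1, which maintains methylation at replication, fell from 11.50, 11.29 and 11.53 to 7.57, 7.27 and 7.32 (change -4.05). The methyltransferase genes of Polycomb moved in opposite directions: Ezh2 fell from 11.36, 11.26 and 11.43 to 9.55, 9.28 and 9.38 (change -1.95), and Ezh1 rose from 8.15, 8.37 and 8.44 to 10.03, 10.06 and 10.06 (change 1.73). Cbx7 rose by 2.06.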

How the data were processed

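RNA-seq was done on 18 libraries, of which the 6 hippocampal ones are described. Per the labels, reads of 76 bases were trimmed with Trimmomatic 0.36, aligned with STAR 2.5.2, quantified with RSEM 1.3.0 and normalised with DESeq2 1.18.1 (the study's methods and the labels differ on the kit and the RSEM version). The authors deposited log2 values that look regularised (29.4% are negative); the transform and any use of strand are not given in the sources used here. Depth per library is not in the table and its effect on precision is unknown. Samples were grouped by their labels.

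Genes reaching 3.32 on that scale in 3 or more of the 6 libraries were tested with limma 3.58.1 (R 4.3.3; trend in the variance, Benjamini-Hochberg adjustment over 14781 genes, threshold 0.05). The change was also set against the mean change of the traced lines over all 18 libraries. The script was tested on simulated data. Same-numbered cultures deviated from their group means with correlations of 0.02, 0.0014 and -0.05, so numbers were not taken as pairs. Named genes were the 10 largest rises and falls (protein-coding, a mean of at least 100 on the linear scale in the higher group, fates not overlapping), the key members and 4 largest changes of each of 36 lists, and Huwe1. Gfap, C3, Nes and listed cell cycle genes were left out of the 10 largest rises and falls (361 otherwise met the criteria). The 36 lists were not cut in this way and hold cell cycle regulators such as Ccnd1. Marker genes named beside the counts of other cell types, and genes named as under the filter, fall outside this rule and were chosen after their values were seen. Members, lists and tests were chosen with earlier results of these data known. Gene positions are of GRCm38 (GENCODE M21 matched 27904 genes), and promoter windows are RefSeq sequences of GRCm38.p6. Shares of 75-base stretches found in other genes and of overlapped exons mark uncertain genes. Beside those named with the results, exons of Hes5, Kcna6, Cdkn1c and Ctsd overlap other genes by 30.7% to 39.6%, and Phgdh and Ctsd share 47.1% and 35.8% of their stretches. Results for some named genes are not reported here.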

Additional observations from a re-analysis of the deposited data

Results flagged for a closer look

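For 13 of the 20 genes ranked above by size, the change in the hippocampal line differed from the mean change of the traced lines (limma over 18 libraries, adjusted p under 0.05). The differences, hippocampal minus traced on the log2 scale, were 6.62 for Ppl, 8.35 for Serpina3m, 7.45 for Aspg, 7.76 for Galnt9, 7.02 for Mrgprf, 6.86 for Oasl2, 4.45 for Col6a1, 5.11 for Ifit1, 2.74 for Clu and 7.05 for Cnmd. Among the falls they were -1.60 for Egr4, -3.20 for Car3 and -1.05 for Nrgn. The genes were picked for their change in the hippocampal line, so that passing this test is no independent support for a difference between lines. For 8 of the 10 rises, Col6a1 and Clu excepted, the NSC mean was under the filter, where the values have no fixed level, and their differences have no exact size. Against the EYFP line alone the difference of Egr4 did not pass. Line, tissue of origin and genotype cannot be told apart here.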

How the results depend on the processing

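Of 227 named genes, 213 kept their direction and side of the threshold under every alternative run, as did 28 of 36 list counts within 1.5 times, 5 of 6 overall counts and 16 of 20 differences from the traced lines. Of the 36 list medians only 13 moved by no more than 0.1, or the spread between libraries where that is larger, in every alternative; over all lists and alternatives 43 values moved further and 4 turned. The number of genes changed was 9367 with a filter of 100 on the linear scale, 12294 with none, and 10824 to 11391 on leaving out each library. With the replicate number as a block it was 11329. The block is not the study's design, and the numbers were not found to pair the cultures. Genes higher by at least 1 were 1465 with the filter of 100, beside 2267.

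With that filter fewer genes are tested, and the members changed were 7 for oligodendrocyte, 6 for ependymal, 1 for microglia, 0 for endothelial, 5 for mural, 9 for complement, 15 for collagen and 31 for ion channel genes. Microglia members changed were 1 with quantile normalization, without the trend and with all 18 libraries, and 1 to 2 on leaving out each library. Endothelial members changed were 3 without a filter, 2 with quantile normalization and 0 to 1 on leaving out each library. Medians turned to 0.0167 for Notch and 0.0046 for Wnt without a filter, to 0.157 for neuronal genes with the filter of 100 and to -0.0017 for stem and regional factors without NSC replicate 3 (0.0726 at most on leaving out each library, 0.0325 with all). Slc1a3 turned to -0.30 with quantile normalization. Huwe1, Col1a1, Phgdh, Kcnj10, Mmp14 and Atp5g2 no longer passed in some alternatives, each on leaving out at least 1 library, and Vcan and Hspa5 passed with the replicate block. The difference of Egr4 from the traced lines did not pass against the EYFP line alone. Where not stated, the cause was not tested.

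The cultures came from 1 line, so the spread covers no other animal or line. Depth per library was not used here, and values near the bottom of the scale carry no measured level.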

Other observations

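These values were looked at after the lists had been seen. The changes of the 13 protein genes of the mitochondrial genome ran from -0.14 to 1.4 on the log2 scale. Of the interferon receptor genes, Ifnar1 fell by 0.11 on the log2 scale, and Ifnar2, Ifngr1 and Ifngr2 rose by 0.54, 0.56 and 0.38. Ifnlr1, also a receptor gene, had means of -0.06 in NSCs and 0.94 in astrocytes and was not tested. Of the interferon genes themselves, the table held Ifnk, with means of -2.14 and -2.13, and Ifnz, with means of 0.29 and 0.47, and neither was tested.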
